A study of Mus musculus with 12 samples.

Results

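Glycolysis breaks glucose down to pyruvate, and glycogen is the branched glucose store that muscle builds and consumes. The members are 33 genes of these pathways, out of 16288 genes listed in any library, chosen by symbol from textbook membership. A list of 11 muscle isozymes (*Slc2a4*, *Hk2*, *Pfkm*, *Pfkfb1*, *Fbp2*, *Aldoa*, *Pgam2*, *Eno3*, *Pygm*, *Phka1* and *Phkg1*) was set against 22 other members, mostly enzymes present in many tissues. The low-count filter kept 31 of the 33. *Fbp2*, the muscle fructose bisphosphatase, had at most 2 counts in any library and *Pygl*, the liver glycogen phosphorylase, at most 12, and neither was tested.

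The cells were C2C12, a single immortalized mouse myoblast line, and each of 6 groups had 2 libraries, A and B, described as biological duplicates. All groups received either DMSO, the vehicle, or 50 uM PFI-3, a ligand of the bromodomains of the SWI/SNF ATPases BRM and BRG1 and of a bromodomain of PB1. Proliferating cells (GM) were kept in fetal bovine serum and harvested after a 12 h exposure. Differentiating cells had the same 12 h pretreatment, were moved to horse serum with insulin, and were harvested after 24 h (DM 24h) or 48 h (DM 48h) with the compound renewed every 24 h. Length of exposure rises with stage, so stage and exposure time cannot be told apart.

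Several steps of glycolysis are catalysed by isozymes, related enzymes from separate genes with different tissue distributions. Mature muscle relies on the glucose transporter GLUT4 (*Slc2a4*), hexokinase 2, the M form of phosphofructokinase, aldolase A, phosphoglycerate mutase 2, beta-enolase (*Eno3*) and the muscle glycogen phosphorylase (*Pygm*). The hypoxia-inducible factor HIF-1 and the muscle transcription factors MyoD, myogenin and MEF2 are known regulators of many of these genes.

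Library totals lay between 12576374 and 13658352 expected counts. The A and B libraries differed more in GM, with an SD of the log2 ratio of 0.33 with DMSO and 0.301 with PFI-3, than in the differentiating groups, where it was 0.138 to 0.151. All 8 myoblast and myocyte markers were listed, and their summed level was lower with PFI-3 than with DMSO at each stage: 725 to 857 against 1207 to 1244 CPM (counts scaled to library size) in GM, 2558 to 2599 against 4165 to 4180 in DM 24h, and 6176 to 6348 against 8232 to 8256 in DM 48h. The summed level of 4 fibroblast markers, of which *Tcf21* was at 0, was 11.1 to 17.5 against 6.98 to 11.1 CPM in GM, 28.0 to 29.4 against 14.9 to 15.8 in DM 24h and 25.8 to 28.7 against 18.3 to 18.7 in DM 48h. Of these, *Pdgfra* had group means of 14.3 against 8.95, 25.5 against 11.6 and 23.3 against 11.1 CPM in GM, DM 24h and DM 48h, while *Dpt* was lower with PFI-3, at 2.02 against 3.02 in DM 24h and 2.23 against 5.38 in DM 48h. *Col15a1* had 1.22 against 0.742 and 1.76 against 2.00. Of the myoblast and myocyte markers, *Myf5* was higher with PFI-3 in DM 24h, at 48.9 against 40.9 CPM. *Myog* and *Ckm* were higher in GM, at 0.646 against 0.263 and 0.178 against 0.0761 CPM. Every other group mean of that list was lower with PFI-3. The part of the markers in the results was not tested. In bulk RNA, fewer cells of a type and less RNA per cell cannot be told apart. Adipocyte (5), endothelial (3) and hepatocyte (3) markers summed to at most 0.214, 1.22 and 0.0783 CPM in any library, and 4 macrophage markers to at most 9.55 CPM, most of it *Cd68*, with *Ptprc* at most 0.163 and *Adgre1* at 0.

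Differentiation with DMSO comes first, as the reference for the compound. At 24 h members were called in both directions, as were genes in general, and most members then rose to 48 h. In DM 24h against GM, edgeR called 13 of 31 members higher and 12 lower, where 30.6% and 30.0% of all genes tested were called in these directions. Of these calls, 6 of the 13 higher and 10 of the 12 lower held in every alternative run. Of the 10 muscle isozymes tested, 6 rose and 3 fell, with *Pygm* (log2 fold change 6.31 ± 0.17 SE, adjusted p = 3.52e-11), *Pgam2* (4.02 ± 0.44 SE, adjusted p = 9.36e-06) and *Slc2a4* (2.75 ± 0.34 SE, adjusted p = 2.23e-05) leading from a few counts in GM. *Hk2* (-1.35 ± 0.12 SE, adjusted p = 1.87e-06) and *Eno3* (-0.36 ± 0.088 SE, adjusted p = 0.00378) fell. Of the 21 other members tested, 7 rose and 9 fell, the falls including *Ldha* (-0.50), *Slc2a1* (-0.62), *Pgam1* (-0.49), *Eno1* (-0.47) and *Pkm* (-0.42). The 3 falls of muscle isozymes and the 7 rises of other members are near the shares of all genes. Without library B of the DM 24h DMSO group, 8 members were called higher.

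From DM 24h to DM 48h with DMSO, 19 of 31 members rose and 2 fell, against 24.2% and 23.9% of all genes tested. The 19 rises were called under every alternative run. They took in 7 of 10 muscle isozymes, with a median log2 fold change of 1.51 for that list, and 12 of 21 other members, with a median of 0.39, where the median of all genes was 0.005. *Pgam2* (4.38 ± 0.18 SE, adjusted p = 3.46e-09), *Pygm* (3.43 ± 0.084 SE, adjusted p = 5.32e-11) and *Pfkm* (2.50 ± 0.13 SE, adjusted p = 1.55e-08) had the largest rises. *Hk2* (1.78), *Ldha* (0.74), *Slc2a1* (0.64), *Pfkfb3* (1.65) and *Eno3* (1.07) fell in the first interval and rose in the second. The 2 falls were *Pygb* (-0.46 ± 0.089 SE, adjusted p = 0.00111), the brain-type glycogen phosphorylase, and *Pgm1* (-0.36 ± 0.087 SE, adjusted p = 0.0049), a phosphoglucomutase. Without library A or library B of the GM DMSO group, 4 members were called lower in this interval, and 1 was without library B of the DM 24h DMSO group. No muscle isozyme was called lower by edgeR, with 1 at an unadjusted p under 0.05, 0 by DESeq2 and 1 by limma.

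PFI-3 went with mostly higher calls of members in DM 24h and mostly lower calls in DM 48h. In DM 24h it raised 11 of 31 members and lowered 3, where 12.2% of all genes tested were called higher and 11.4% lower. In DM 48h it raised 1 and lowered 18, where 13.4% were called higher and 14.0% lower. The 33 genes together held 1.69% to 1.73% of all counts with DMSO and 1.99% to 2.00% with PFI-3 in DM 24h. In DM 48h they held 2.21% to 2.24% with DMSO and 1.81% to 1.83% with PFI-3. In GM the shares were 1.97% to 2.01% and 1.66% to 1.80%.

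The difference between the 2 lists was not tested, and their counts in DM 24h are given side by side. Of 10 muscle isozymes, 1 (*Hk2*) rose and 3 fell, with a median log2 fold change of 0.09. The counts depend on placing *Hk2* and *Aldoa* among the muscle isozymes. With *Hk2* counted as another member, that list would lose its only rise in DM 24h. Both genes were also among the muscle isozymes that fell in DM 48h. Of 21 other members, 10 rose and none was called lower by edgeR, with 0 at an unadjusted p under 0.05, 0 by DESeq2 and 0 by limma; the median was 0.23, against -0.001 for all genes. In DM 48h both lists were mostly lower: 7 of 10 muscle isozymes fell with a median of -0.61, and 11 of 21 other members fell and 1 rose with a median of -0.33, where the median of all genes was 0.001. No muscle isozyme was called higher there by edgeR, with 0 at an unadjusted p under 0.05, 0 by DESeq2 and 0 by limma. *Pygm*, *Pgam2* and *Eno3* were lower at both times. *Hk2*, *Slc2a1*, *Gpi1*, *Pfkfb3*, *Pgk1* and *Ldha*, 6 genes in all, were higher in DM 24h and lower in DM 48h. A further 9 members were not called in DM 24h and lower in DM 48h, and 5 were higher in DM 24h and not called in DM 48h. The share of all genes with each pair of calls was not counted.

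**Figure D1:**
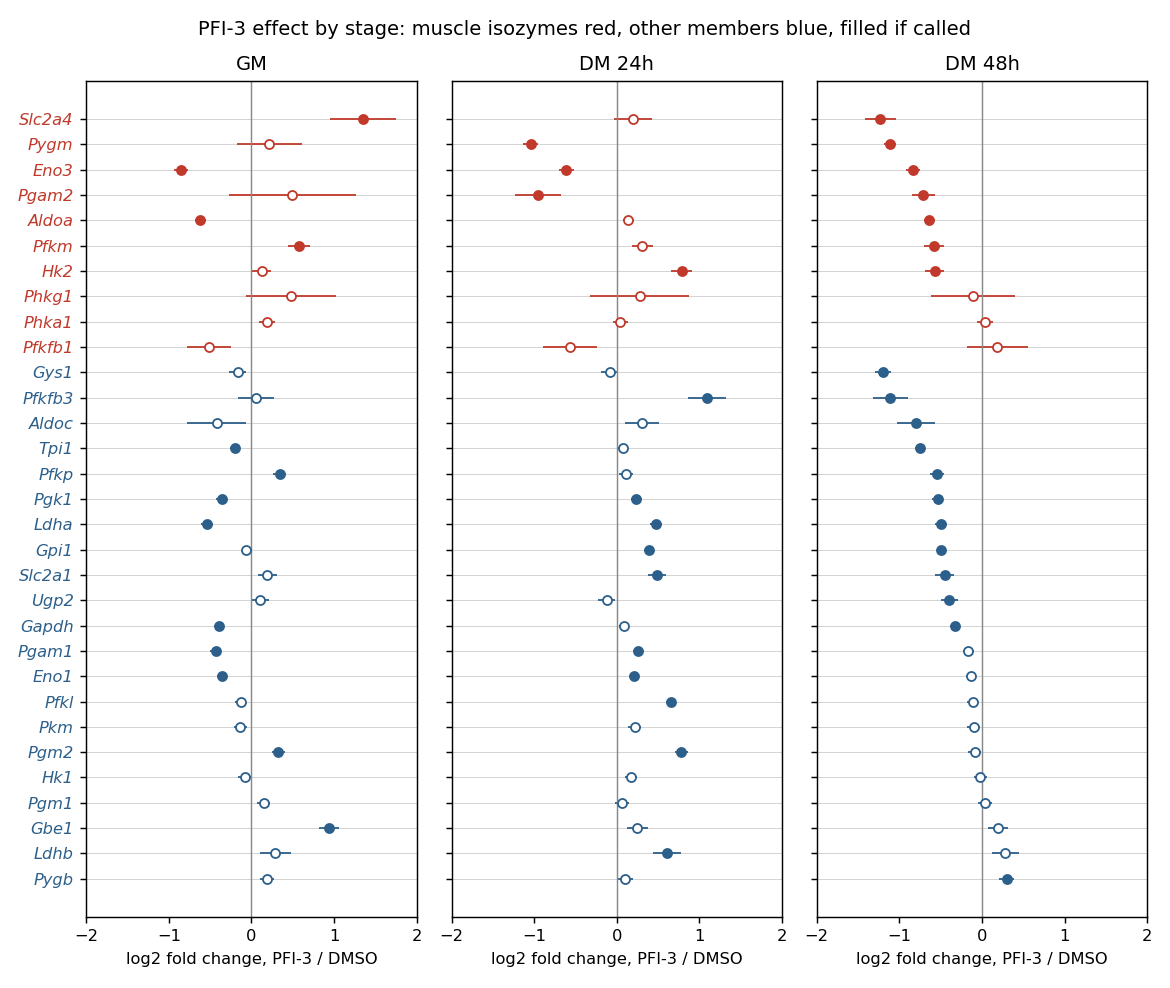
Log2 fold change of PFI-3 over DMSO for the 31 members tested, in GM, in DM 24h and in DM 48h, from edgeR on 12 libraries; bars are standard errors, red marks muscle isozymes, blue the other members, and filled points passed an adjusted p under 0.05. In DM 24h filled blue points lie right of 0, and in DM 48h 18 of the 19 filled points lie left of it.

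The calls in DM 24h were close to the threshold for several members. *Hk2*, *Gpi1*, *Pfkl*, *Pfkfb3*, *Ldha* and *Pgm2* were higher in every alternative run. The calls of *Slc2a1*, *Pgk1*, *Pgam1*, *Eno1* and *Ldhb* were lost in some of them. The count of 11 members fell to 6 without library A of the DM 24h DMSO or the DM 24h PFI-3 group, and to 7 without library B of either, and it was 17 in a fit of these 4 libraries with the library letter as a block. In DM 48h, 14 of the 18 lower calls held in every alternative, and the other 4 were *Pgam2*, *Slc2a1*, *Aldoc* and *Ugp2*.

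Glycogen breakdown held the member with the smallest adjusted p at both differentiation stages. *Pygm* encodes muscle glycogen phosphorylase, which releases glucose 1-phosphate from glycogen. *Pygm* stood at 0.18 and 0.16 FPKM in GM, 14.7 and 13.7 in DM 24h and 149.8 and 143 in DM 48h with DMSO, against 0.16 and 0.26, 7.38 and 6.92, and 75.7 and 68.2 with PFI-3. The PFI-3 libraries lay below both DMSO libraries in DM 24h and DM 48h, and overlapped them in GM, where each library had 6 to 10 counts. The log2 fold change was -1.04 ± 0.091 (SE, adjusted p = 1.11e-05) in DM 24h and -1.11 ± 0.075 (SE, adjusted p = 1.4e-06) in DM 48h. The difference between these effects was -0.07 with an adjusted p of 0.743.

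Phosphoglycerate mutase 2 and beta-enolase carry the later steps of glycolysis in muscle. *Pgam2* stood at 0 and 0.71 FPKM in GM, 6.14 and 6.14 in DM 24h and 121 and 124 in DM 48h with DMSO, against 0.45 and 0.62, 2.67 and 3.9, and 79.6 and 80.1 with PFI-3. Its GM libraries had 0 to 8 counts. PFI-3 libraries were below the DMSO libraries at both later stages, with log2 changes of -0.95 ± 0.28 (SE, adjusted p = 0.0283) in DM 24h and -0.71 ± 0.14 (SE, adjusted p = 0.00251) in DM 48h. In DM 24h and DM 48h, limma gave adjusted p-values of 0.0286 and 0.0509 on log2(FPKM + 1), and of 0.39 and 0.548 on log2(FPKM + 0.1). The limma spread is shared by all 6 groups, among them the GM DMSO libraries at 0 and 0.71 FPKM. These p-values therefore do not measure the spread in DM 24h or DM 48h alone. The edgeR p-values also come from 1 model of all 6 groups, so the same limit holds for them. The DM 24h call was also lost without any 1 of the 4 DM 24h libraries and without either DM 48h DMSO library. *Eno3* stood at 302 and 259 FPKM in GM, 235 and 219 in DM 24h and 434 and 476 in DM 48h with DMSO, against 171 and 164, 158 and 151, and 273 and 273 with PFI-3. *Eno3* was thus lower in both PFI-3 libraries than in both DMSO libraries at all stages, by -0.85 ± 0.089 (SE, adjusted p = 0.000175) in GM, -0.61 ± 0.089 (SE, adjusted p = 0.000524) in DM 24h and -0.83 ± 0.089 (SE, adjusted p = 3.18e-05) in DM 48h on the log2 scale.

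**Figure D2:**
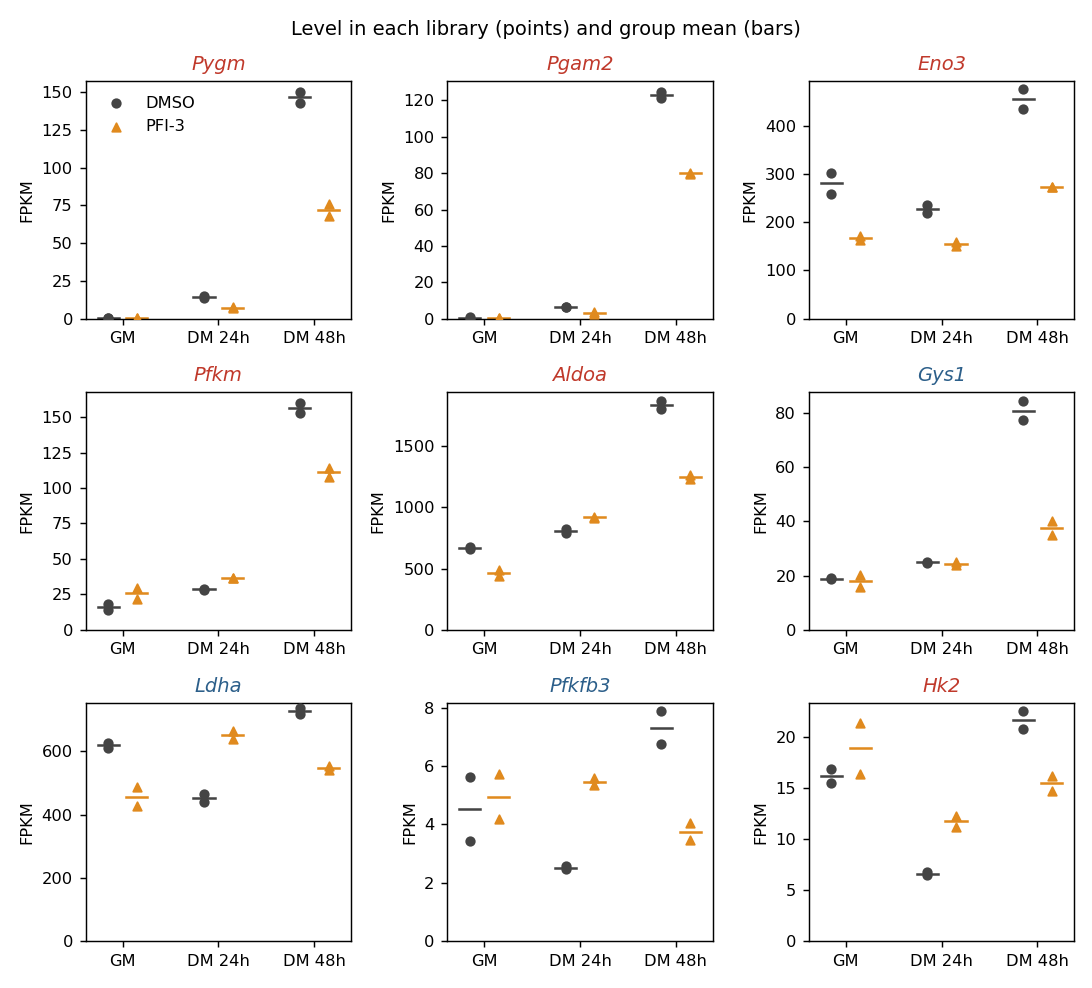
Deposited FPKM (fragments scaled by transcript length and depth) of 9 members by stage; each point is a library, circles DMSO and triangles PFI-3, horizontal bars are means of 2 libraries, and gene names are red for muscle isozymes and blue for other members. *Pygm*, *Pgam2* and *Eno3* are lower with PFI-3 at both differentiation stages, while *Ldha*, *Pfkfb3* and *Hk2* are higher in DM 24h and lower in DM 48h.

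The promoters of these 3 genes, which were lower at both times, and the upstream promoter of *Pfkfb3*, whose effect differed most between DM 24h and DM 48h, are printed below to show which muscle and hypoxia motifs they hold. Each is the 250 bases before a transcript start listed in the RefSeq promoter table on build GRCm38.p6, 5′ to 3′ on the gene's strand. The *Pygm* and *Pgam2* windows abut the annotated end of the gene, the *Eno3* window lies inside the annotated span of its gene, and the *Pfkfb3* window overlaps its gene in part. Capitals mark CAGCTG (an E-box that MyoD and myogenin can bind), the MEF2 motif, and ACGTG or GCGTG (the core that HIF-1 can bind), each searched on both strands, so that CACGT and CACGC are also capitals. *Pygm* is at chr19:6384158-6384407 (+), *Pgam2* at chr11:5803797-5804046 (-), *Eno3* at chr11:70656926-70657175 (+) and *Pfkfb3* at chr2:11553930-11554179 (-).
Pygm: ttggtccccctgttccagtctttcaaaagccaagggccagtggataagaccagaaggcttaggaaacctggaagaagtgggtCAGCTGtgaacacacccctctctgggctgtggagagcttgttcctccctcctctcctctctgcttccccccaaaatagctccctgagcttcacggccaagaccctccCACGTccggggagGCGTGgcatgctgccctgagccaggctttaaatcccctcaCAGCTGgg
Pgam2: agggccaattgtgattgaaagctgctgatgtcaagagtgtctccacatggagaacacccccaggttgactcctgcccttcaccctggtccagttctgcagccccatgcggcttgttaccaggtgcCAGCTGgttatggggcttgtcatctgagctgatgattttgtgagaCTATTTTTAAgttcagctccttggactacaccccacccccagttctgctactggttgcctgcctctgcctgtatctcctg
Eno3: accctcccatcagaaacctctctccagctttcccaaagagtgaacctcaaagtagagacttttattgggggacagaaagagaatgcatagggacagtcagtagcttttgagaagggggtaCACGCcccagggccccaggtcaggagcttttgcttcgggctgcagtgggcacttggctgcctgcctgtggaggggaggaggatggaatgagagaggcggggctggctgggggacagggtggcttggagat
Pfkfb3: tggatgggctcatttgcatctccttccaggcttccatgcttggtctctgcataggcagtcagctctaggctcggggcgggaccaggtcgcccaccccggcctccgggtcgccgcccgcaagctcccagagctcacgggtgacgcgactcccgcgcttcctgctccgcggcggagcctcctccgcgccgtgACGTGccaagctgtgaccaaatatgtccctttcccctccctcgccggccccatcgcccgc

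The *Pygm* window holds 2 CAGCTG matches and 2 of the HIF-1 core, and the *Pgam2* window 1 CAGCTG and 1 MEF2 match. The *Eno3* and the *Pfkfb3* windows hold 1 HIF-1 core each and no match to the other motifs. A downstream *Pfkfb3* start, with its window at chr2:11502091-11502340 (-) and not printed, has 3 HIF-1 core matches, of which 2 overlap. Of the 33 members, 32 had a sequence in the promoter table, with 48 starts; *Slc2a4* was not in it. CAGCTG occurred at 9 of the 48 starts, in 9 members, and at 13.0% of all 32841 starts. A MEF2 match occurred at 2 starts, in *Pgam2* and *Pfkfb1*, and at 2.92% of all starts. ACGTG or GCGTG occurred at 34 starts, in 26 members, and at 38.6% of all starts. No matches of different motifs overlapped in the printed windows. The matches describe letters in these windows and not binding.

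GLUT1 (*Slc2a1*) is the widespread transporter and GLUT4 (*Slc2a4*) the insulin-responsive one of muscle and fat. *Slc2a4* stood at 0.13 and 0.16 FPKM in GM, 1.01 and 1.07 in DM 24h and 3.88 and 4.24 in DM 48h with DMSO, against 0.33 and 0.48, 1.32 and 1.14, and 2.05 and 1.62 with PFI-3. The PFI-3 libraries lay above the DMSO libraries in GM and in DM 24h and below them in DM 48h, where the log2 fold change was -1.23 ± 0.19 (SE, adjusted p = 0.000477). The DM 24h value was 0.20 ± 0.23 (SE, adjusted p = 0.584). The GM value of 1.35 ± 0.4 (SE, adjusted p = 0.0481) rests on 5 and 6 counts with DMSO and 12 and 18 with PFI-3, and it was called in 3 of the 7 alternatives that kept all 12 libraries, in neither fit of the 4 GM libraries, and in 1 of 12 fits that left out a library. *Slc2a1* stood at 54.9 and 74.7 FPKM in GM, 40.8 and 46.4 in DM 24h and 64.8 and 64.9 in DM 48h with DMSO, against 73.1 and 85.0, 64.7 and 61.6, and 49.7 and 51.1 with PFI-3. *Slc2a1* was higher with PFI-3 in DM 24h (0.49 ± 0.11 SE, adjusted p = 0.00938) and lower in DM 48h (-0.45 ± 0.11 SE, adjusted p = 0.0112), and its GM libraries overlapped. The DM 24h call was lost without library A of either group, and limma on log2(FPKM + 1) or log2(FPKM + 0.1) did not call the DM 48h fall, which was also lost without any 1 of the 4 DM 48h libraries.

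Hexokinases trap glucose as glucose 6-phosphate. *Hk2* stood at 16.8 and 15.5 FPKM in GM, 6.45 and 6.72 in DM 24h and 20.8 and 22.5 in DM 48h with DMSO, against 21.4 and 16.4, 11.2 and 12.3, and 16.2 and 14.8 with PFI-3. *Hk2*, the insulin-regulated muscle form, was higher in both PFI-3 libraries in DM 24h (0.78 ± 0.12 SE, adjusted p = 0.000911) and lower in both in DM 48h (-0.57 ± 0.12 SE, adjusted p = 0.00308). *Hk1* stood at 43.0 and 52.5 FPKM in GM, 58.4 and 60.9 in DM 24h and 51.5 and 51.3 in DM 48h with DMSO, against 46.8 and 49.8, 69.8 and 69.4, and 56.0 and 51.5 with PFI-3. The widespread *Hk1* was not called at any stage, with log2 fold changes of -0.08, 0.17 and -0.02. Glucose 6-phosphate isomerase (*Gpi1*), which makes fructose 6-phosphate, was higher in DM 24h (0.39 ± 0.056 SE, adjusted p = 0.000454) and lower in DM 48h (-0.49 ± 0.055 SE, adjusted p = 4.99e-05). It was 210.0 and 211 FPKM with DMSO and 287 and 282 with PFI-3 in DM 24h, and 371 and 363 against 281 and 273 in DM 48h.

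Phosphofructokinase commits sugar to glycolysis. *Pfkm* stood at 13.9 and 18.4 FPKM in GM, 28.9 and 28.3 in DM 24h and 153 and 160.3 in DM 48h with DMSO, against 21.8 and 29.6, 36.5 and 36.6, and 114 and 108 with PFI-3. The muscle subunit *Pfkm* was higher with PFI-3 in GM (0.57 ± 0.13 SE, adjusted p = 0.0182) and lower in DM 48h (-0.58 ± 0.12 SE, adjusted p = 0.00346), while DM 24h gave 0.31 ± 0.13 (SE, adjusted p = 0.0993). *Pfkl* stood at 31.5 and 33.3 FPKM in GM, 37.2 and 39.7 in DM 24h and 52.8 and 54.7 in DM 48h with DMSO, against 30.7 and 32.6, 64.5 and 61.1, and 53.3 and 52.3 with PFI-3. The liver-type subunit *Pfkl* was higher with PFI-3 in DM 24h only among the tests by stage (0.66 ± 0.065 SE, adjusted p = 2.92e-05). Its treatment groups overlapped in FPKM in DM 48h and in GM. In CPM both PFI-3 libraries were below both DMSO libraries at these stages, with uncalled log2 fold changes of -0.11 and -0.13. *Pfkp* stood at 10.9 and 12.5 FPKM in GM, 8.5 and 8.63 in DM 24h and 10.5 and 10.1 in DM 48h with DMSO, against 16.6 and 15.1, 9.47 and 9.63, and 7.2 and 7.85 with PFI-3. The platelet-type subunit *Pfkp* was lower in DM 48h (-0.54 ± 0.083 SE, adjusted p = 0.000495) and higher in GM (0.34 ± 0.078 SE, adjusted p = 0.0178).

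The bifunctional enzymes set fructose 2,6-bisphosphate, the main activator of phosphofructokinase. *Pfkfb3* stood at 5.62 and 3.43 FPKM in GM, 2.56 and 2.45 in DM 24h and 7.88 and 6.75 in DM 48h with DMSO, against 5.71 and 4.18, 5.58 and 5.34, and 3.46 and 4.03 with PFI-3. *Pfkfb3*, an isozyme induced by hypoxia and with strong kinase activity, had the largest difference between the 2 differentiation stages: 1.09 ± 0.23 (SE, adjusted p = 0.0052) in DM 24h and -1.11 ± 0.21 (SE, adjusted p = 0.00233) in DM 48h. The PFI-3 libraries of the 2 stages spanned 3.46 to 5.58 FPKM, inside the DMSO range of 2.45 to 7.88. *Pfkfb1* stood at 2.85 and 2.36 FPKM in GM, 1.47 and 1.29 in DM 24h and 0.84 and 0.65 in DM 48h with DMSO, against 1.75 and 2.14, 0.8 and 1.13, and 1.14 and 0.66 with PFI-3. *Pfkfb1*, of liver and muscle, was not called at any stage with PFI-3.

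**Figure D3:**
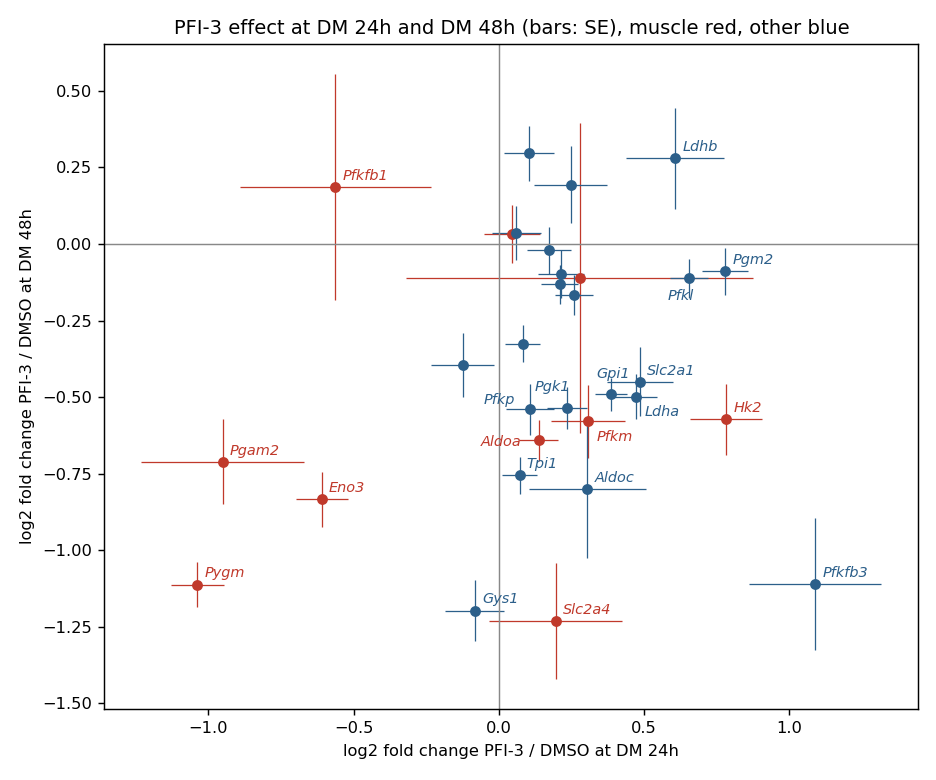
Log2 fold change of PFI-3 over DMSO in DM 24h (horizontal) against DM 48h (vertical) for the 31 members; bars are standard errors, red marks muscle isozymes and blue other members, and labels mark members beyond 0.45 on either axis. *Pfkfb3*, *Hk2*, *Ldha*, *Slc2a1* and *Gpi1* lie at lower right, and *Pygm*, *Pgam2* and *Eno3* at lower left.

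Aldolase splits fructose bisphosphate and triose phosphate isomerase interconverts its products. *Aldoa* stood at 659 and 680.3 FPKM in GM, 788 and 826 in DM 24h and 1807 and 1871 in DM 48h with DMSO, against 442 and 491, 923 and 915, and 1268 and 1236 with PFI-3. *Aldoa* was lower with PFI-3 in GM (-0.62 ± 0.067 SE, adjusted p = 0.000201) and in DM 48h (-0.64 ± 0.067 SE, adjusted p = 2.67e-05), and in DM 24h it had a value of 0.14 ± 0.066 (SE, adjusted p = 0.156). *Aldoc* stood at 0.42 and 0.36 FPKM in GM, 2.26 and 1.95 in DM 24h and 1.88 and 1.92 in DM 48h with DMSO, against 0.38 and 0.25, 2.38 and 2.99, and 1.04 and 1.28 with PFI-3. *Aldoc*, the brain form, had 9 to 99 counts per library and was lower in DM 48h (-0.80 ± 0.23 SE, adjusted p = 0.0204), a call that was lost without any 1 of the 4 DM 48h libraries and with DESeq2. *Tpi1* fell in DM 48h from 683 and 705 to 446 and 429 FPKM (-0.76 ± 0.059 SE, adjusted p = 3.51e-06) and had 0.07 ± 0.059 (SE, adjusted p = 0.414) in DM 24h.

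The later steps of the pathway harvest ATP and NADH. *Gapdh*, often used as a reference gene, stood at 5207 and 5179 FPKM with DMSO and 4343 and 4441 with PFI-3 in DM 48h, a change of -0.33 ± 0.06 (SE, adjusted p = 0.00165). It was also lower in GM (-0.40 ± 0.06 SE, adjusted p = 0.00185), and its DM 24h value was 0.08 ± 0.06 (SE, adjusted p = 0.347). Phosphoglycerate kinase (*Pgk1*) was lower in GM (-0.36), higher in DM 24h (0.23 ± 0.068 SE, adjusted p = 0.0265) and lower in DM 48h (-0.53 ± 0.068 SE, adjusted p = 0.000126). *Pgam1* stood at 421 and 418 FPKM in GM, 306 and 313 in DM 24h and 280.4 and 287 in DM 48h with DMSO, against 317 and 349, 388 and 379.7, and 266 and 272 with PFI-3. *Pgam1*, the widespread mutase, was lower in GM (-0.43 ± 0.065 SE, adjusted p = 0.00186) and higher in DM 24h (0.26 ± 0.065 SE, adjusted p = 0.0135), with -0.17 ± 0.065 (SE, adjusted p = 0.0782) in DM 48h.

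Alpha-enolase is the widespread enolase. *Eno1* stood at 1563 and 1485 FPKM in GM, 1133 and 1150.2 in DM 24h and 1084 and 1078 in DM 48h with DMSO, against 1266 and 1285, 1382 and 1352, and 1047 and 1051 with PFI-3. *Eno1* was lower in GM (-0.36 ± 0.063 SE, adjusted p = 0.00479) and higher in DM 24h (0.21 ± 0.063 SE, adjusted p = 0.0311), and its DM 48h value was -0.13 ± 0.063 (SE, adjusted p = 0.149). The split of its reads is uncertain, because the near-identical copy *Eno1b* took 30.2% to 33% of the counts of both in every library. Summed, the pair stood at 2888 and 2901 CPM with DMSO and 3497 and 3385 with PFI-3 in DM 24h. Fractional counts also show that *Gpi1* shared reads with other genes in all 12 libraries. Pyruvate kinase (*Pkm*) makes a muscle form and a form of growing cells by splicing, which gene counts do not separate, and it was not called with PFI-3 at any stage (log2 fold changes -0.14, 0.21 and -0.10).

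Lactate dehydrogenase turns pyruvate into lactate. *Ldha* stood at 628 and 613 FPKM in GM, 467 and 442 in DM 24h and 718 and 737 in DM 48h with DMSO, against 427 and 486, 664 and 639, and 554 and 541 with PFI-3. *Ldha*, the M subunit, was lower with PFI-3 in GM (-0.54 ± 0.074 SE, adjusted p = 0.000952), higher in DM 24h (0.47 ± 0.074 SE, adjusted p = 0.000826) and lower in DM 48h (-0.50 ± 0.074 SE, adjusted p = 0.000365), with no overlap of the treatment groups at any stage. *Ldhb* stood at 4.52 and 7.34 FPKM in GM, 9.51 and 9.27 in DM 24h and 10.9 and 12.7 in DM 48h with DMSO, against 6.92 and 8.66, 14.8 and 14.9, and 15.3 and 15.2 with PFI-3. *Ldhb*, the H subunit of heart, was higher in DM 24h (0.61 ± 0.17 SE, adjusted p = 0.0215) and its DM 48h value was 0.28 ± 0.16 (SE, adjusted p = 0.236).

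Glycogen synthase 1 (*Gys1*), the form of muscle and most other tissues outside liver, elongates the glucose chains and was counted among the other members, so its DM 48h fall is 1 of their 11. *Gys1* stood at 18.8 and 18.9 FPKM in GM, 24.8 and 25.2 in DM 24h and 84.3 and 77.6 in DM 48h with DMSO, against 20.1 and 16.0, 25.1 and 23.7, and 40.0 and 34.9 with PFI-3. Both PFI-3 libraries in DM 48h had less than either DMSO library, and the change of -1.20 ± 0.099 (SE, adjusted p = 4.84e-06) was the only one of a synthesis member beyond 1 on the log2 scale; in DM 24h it was -0.08 ± 0.1 (SE, adjusted p = 0.606). UDP-glucose pyrophosphorylase (*Ugp2*), which supplies the glucose donor, fell in DM 48h (-0.40 ± 0.1 SE, adjusted p = 0.0141), a call lost without any 1 of the 4 DM 48h libraries and with limma. The branching enzyme *Gbe1* was higher in GM (0.94 ± 0.12 SE, adjusted p = 0.000827) and was not called in DM 24h (0.25) or DM 48h (0.19).

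Breakdown of glycogen outside *Pygm* drew few calls. *Pygb* stood at 17.4 and 20.8 FPKM in GM, 16.9 and 17.1 in DM 24h and 12.6 and 11.1 in DM 48h with DMSO, against 22.3 and 24.3, 19.4 and 18.5, and 14.9 and 16 with PFI-3. *Pygb* was the only member called higher in DM 48h (0.30 ± 0.09 SE, adjusted p = 0.0282), and that call was lost with DESeq2 and without library B of the DMSO group or either PFI-3 library. *Pygl* stood at 0 and 0.03 FPKM in GM, 0.14 and 0.06 in DM 24h and 0.28 and 0.34 in DM 48h with DMSO, against 0 and 0.05, 0.11 and 0.26, and 0.12 and 0.12 with PFI-3. The phosphorylase kinase subunits *Phka1* (regulatory) and *Phkg1* (catalytic, muscle) were not called. *Phka1* stood at 3.81 and 4.52 FPKM in GM, 6.02 and 5.92 in DM 24h and 5.88 and 6.5 in DM 48h with DMSO, against 4.73 and 5.4, 6.57 and 6.13, and 6.88 and 6.46 with PFI-3. *Phkg1* stood at 0.25 and 0.35 FPKM in GM, 0.25 and 0.29 in DM 24h and 0.42 and 0.58 in DM 48h with DMSO, against 0.38 and 0.55, 0.13 and 0.56, and 0.38 and 0.59 with PFI-3.

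*Phkg1* had 3.88 to 17.3 expected counts per library, fractional in 11 of 12, and its log2 fold changes with PFI-3, 0.28 ± 0.6 (SE, adjusted p = 0.777) in DM 24h and -0.11 ± 0.51 (SE, adjusted p = 0.9) in DM 48h, were smaller than their standard errors, so that changes of this size were not detectable at this depth. *Fbp2* was listed at 0 to 0.13 FPKM. The phosphoglucomutases, which link glucose 1-phosphate and glucose 6-phosphate, are named as in the files: *Pgm1* (NCBI Gene 66681) carries the symbol *Pgm2* in RefSeq, and *Pgm2* (NCBI Gene 72157) the symbol *Pgm1*. The file's *Pgm2* was higher in GM (0.33 ± 0.08 SE, adjusted p = 0.0238) and in DM 24h (0.78 ± 0.079 SE, adjusted p = 3.27e-05) and was -0.09 in DM 48h, while *Pgm1* was not called at any stage.

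In proliferating cells PFI-3 raised 5 of 31 members (*Slc2a4*, *Pfkm*, *Pfkp*, *Pgm2* and *Gbe1*) and lowered 8 (*Aldoa*, *Eno3*, *Tpi1*, *Gapdh*, *Pgk1*, *Pgam1*, *Eno1* and *Ldha*), against 5.46% and 6.15% of all genes tested. Among them were 2 higher and 2 lower muscle isozymes and 3 higher and 6 lower other members. These calls borrow the spread of the other groups, which was smaller than in GM. In a fit of the 4 GM libraries alone none of the 13 was called by edgeR, with 5 higher and 7 lower at an unadjusted p under 0.05. With the library letter as a block in that fit, 2 members were called higher and 3 lower. Libraries of the same letter deviated together in GM, with a correlation of 0.504. Without library A of the GM DMSO group 1 member was called higher, without its library B 8, and without library B of the GM PFI-3 group 2. The DESeq2 count was 3 higher.

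The difference between stages was tested directly. From DM 24h to DM 48h the PFI-3 effect became lower for 18 of 31 members, where 4.97% of all genes tested were called lower and 7.12% higher. No member was called higher by edgeR, with 0 at an unadjusted p under 0.05, 0 by DESeq2 and 0 by limma. The 18 were 4 muscle isozymes (*Slc2a4*, *Hk2*, *Pfkm* and *Aldoa*) and 14 other members, led by *Pfkfb3* (-2.20 ± 0.31 SE, adjusted p = 0.000738). *Pygm*, *Pgam2* and *Eno3* were not among them, with differences of -0.07, 0.24 and -0.22. Of the 18, 13 held in every alternative run.

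From GM to DM 24h the effect became higher for 9 members (*Aldoa*, *Gpi1*, *Pfkl*, *Gapdh*, *Pgk1*, *Pgam1*, *Eno1*, *Ldha* and *Pgm2*), where 1.78% of all genes tested were called higher and 1.59% lower. *Ldha* had the largest value (1.01 ± 0.1 SE, adjusted p = 0.000716). No member was called lower by edgeR, with 3 at an unadjusted p under 0.05, 0 by DESeq2 and 2 by limma. The comparison of DM 24h with GM and that of DM 48h with DM 24h share the DM 24h libraries. In the fit of the libraries compared, 4 members were called higher, and without library B of the DM 24h DMSO or library A of the DM 24h PFI-3 group 5 were.

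Isozyme shares set members of 1 family side by side per length, as the percentage of the family's summed FPKM. PFI-3 was compared with DMSO over the 3 stages by an exact two-sided permutation test of labels within stages, adjusted over 9 shares. With 2 libraries against 2, a single stage could not give a p below 0.33. The test over stages could not go below 0.00926. Before adjustment the shares of *Eno3* and *Ldhb* were both at this limit. A lack of overlap in the same direction at every stage is what gives that p, so it adds nothing to the test. The share of *Eno3* in the 2 enolases was 16.2 and 14.8 % in GM, 17.2 and 16.0 in DM 24h and 28.6 and 30.7 in DM 48h with DMSO, against 11.9 and 11.3, 10.3 and 10.0, and 20.7 and 20.6 with PFI-3. It was lower by 6.46 percentage points on average (adjusted p = 0.0417, exact permutation test), and both PFI-3 libraries were below both DMSO libraries at each stage. With *Eno1b* counted beside *Eno1*, the share was lower by 5.03 points, with the same adjusted p.

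The share of *Ldhb* in the 2 lactate dehydrogenases was 0.715 and 1.18 % in GM, 2.00 and 2.06 in DM 24h and 1.50 and 1.70 in DM 48h with DMSO, against 1.60 and 1.75, 2.18 and 2.27, and 2.68 and 2.72 with PFI-3. It was higher by 0.676 points on average (adjusted p = 0.0417, exact permutation test), again without overlap at any stage. The share of *Pygm* in the 3 glycogen phosphorylases was 1.02 and 0.764 % in GM, 46.3 and 44.4 in DM 24h and 92.1 and 92.6 in DM 48h with DMSO, against 0.713 and 1.06, 27.5 and 27.0, and 83.4 and 80.9 with PFI-3. The mean difference of -9.44 points (adjusted p = 0.0833, exact permutation test) did not pass the threshold. It came from DM 24h, where the mean share was 45.3% with DMSO and 27.2% with PFI-3, and from DM 48h, where it was 92.3% and 82.2%.

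The share of *Pgam2* in the 2 mutases went from 1.94% to 0.85% in DM 24h and from 30.2% to 22.9% in DM 48h with PFI-3 (adjusted p = 0.104, exact permutation test). *Pfkm* made up 71.0% of the phosphofructokinases with DMSO and 64.8% with PFI-3 in DM 48h, and 26.7% and 34.9% in GM (adjusted p = 0.875, exact permutation test). *Slc2a4* made up 5.89% and 3.52% of the transporters in DM 48h (adjusted p = 0.183, exact permutation test). The share of *Hk2* was 9.94% with DMSO and 14.4% with PFI-3 in DM 24h, and 29.7% and 22.3% in DM 48h (adjusted p = 1, exact permutation test). *Aldoa* held at least 99.7% of the aldolases in every group. *Pfkfb1* shares, from 14 to 65 counts per library, ranged from 8.78% to 40.8% (adjusted p = 0.33, exact permutation test).

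**Figure D4:**
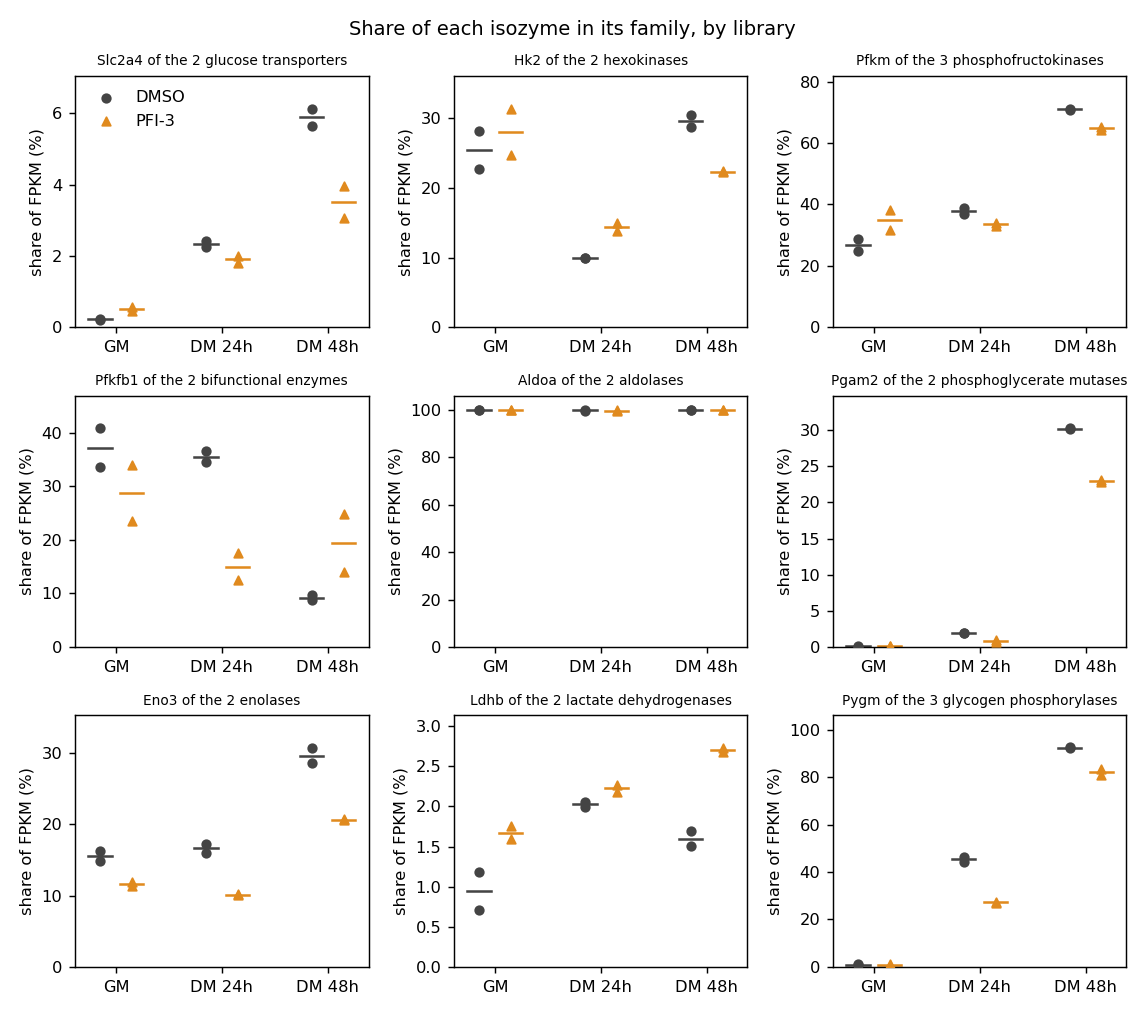
Share (%) of 1 isozyme in the summed FPKM of its family, for 9 families by stage; points are libraries, circles DMSO and triangles PFI-3, and bars are means of 2 libraries, with the vertical axis starting at 0. The *Eno3* share is lower and the *Ldhb* share higher with PFI-3 at all 3 stages, and the *Pygm* share runs from 0.713% to 92.6% over the libraries.

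Neighbouring pathways were described by lists of other genes. With PFI-3, 12.2% of all genes tested were called higher and 11.4% lower in DM 24h, and 13.4% and 14.0% in DM 48h, and the counts of each list are read against these shares. Of 15 glycogen partners tested, 1 rose and 2 fell in DM 24h, counts near those shares, and 4 fell in DM 48h. Those lower in DM 48h included *Pgm5*, a phosphoglucomutase-like protein (log2 fold change -0.90, adjusted p = 2.12e-05), *Phkb*, a phosphorylase kinase subunit (-0.48, adjusted p = 0.00123), and *Stbd1*, a glycogen-binding protein (-0.58, adjusted p = 0.00133). None was called higher in DM 48h by edgeR, with 0 at an unadjusted p under 0.05, 0 by DESeq2 and 1 by limma. The list's median was 0.10 in DM 24h and -0.12 in DM 48h. Of 9 further glycolytic isozymes tested, 1 rose in DM 24h, and in DM 48h *Tigar* (0.60) rose and *Slc2a3* (-2.04) fell, the latter from 1.96 to 0.469 CPM. These counts are near the shares of all genes, and DESeq2 called 0 of this list higher and 0 lower in DM 48h.

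Of 18 genes of pyruvate and lactate fate tested, 4 were called higher (all genes 12.2%) and 3 lower (all genes 11.4%) in DM 24h, and 8 lower in DM 48h (all genes 14.0%). None was called higher in DM 48h by edgeR, with 2 at an unadjusted p under 0.05, 0 by DESeq2 and 2 by limma. *Slc16a3*, the lactate exporter MCT4, had log2 fold changes of 0.44 in DM 24h and -0.95 in DM 48h, and its adjusted p-values were 0.00335 and 6.88e-06. *Pdk1* and *Pdk2*, kinases that inhibit pyruvate dehydrogenase, went 0.83 and 0.48 in DM 24h and -0.71 and -0.83 in DM 48h, each called. *Gpd1*, which makes glycerol 3-phosphate, fell in DM 48h (-1.34, adjusted p = 0.000912). In the pentose phosphate branch, *G6pdx* and *Pgd*, its NADPH-producing enzymes, rose at both stages, by 0.50 and 0.71 in DM 24h and 0.74 and 0.53 in DM 48h. Of the 8 genes of that branch, 1 fell at each stage, and *H6pd* was the one in DM 48h (-0.46).

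HIF-1 targets outside glycolysis also had higher calls in DM 24h and lower calls in DM 48h. Of 16 tested, 5 were higher with PFI-3 in DM 24h (all genes 12.2%) and 13 were lower in DM 48h (all genes 14.0%). By the interaction test 10 had a lower effect in DM 48h than in DM 24h, as did 4.97% of all genes tested. The opposite directions had no calls by edgeR, DESeq2 or limma, and 0 at an unadjusted p under 0.05 by edgeR. The list's median was 0.16 in DM 24h and -0.78 in DM 48h. *Car9*, a carbonic anhydrase, was 1.18 and -0.94, *Bnip3*, a mitophagy receptor, 0.88 and -1.02, and *Mxi1*, a MYC antagonist, 0.64 and -0.70, all called. *Egln3*, a prolyl hydroxylase acting on HIF-1, was -0.29 in DM 24h (adjusted p = 0.182) and -1.60 in DM 48h (adjusted p = 1.19e-05). With DMSO alone, 14 of the 16 rose from DM 24h to DM 48h, as did 24.2% of all genes tested.

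Transcription factors known to act on these genes were measured as 14 regulators tested. *Hif1a* mRNA was not called with PFI-3 in DM 24h (0.10, adjusted p = 0.343) and was higher in DM 48h (0.29, adjusted p = 0.0127). *Myog* was lower at both, by -1.05 (842 to 406 CPM) and -0.62 (1833 to 1196 CPM). *Mef2c* was -2.09 and -2.45, from 1.34 to 0.305 CPM and from 72.6 to 13.3 CPM, and *Mef2d* was -0.38 and -0.50, all called. In the list 5 were lower in DM 24h, where 11.4% of all genes were, and 4 were lower and 2 higher in DM 48h, where 14.0% and 13.4% of all genes were; the 2 higher are near that share.

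**Figure D5:**
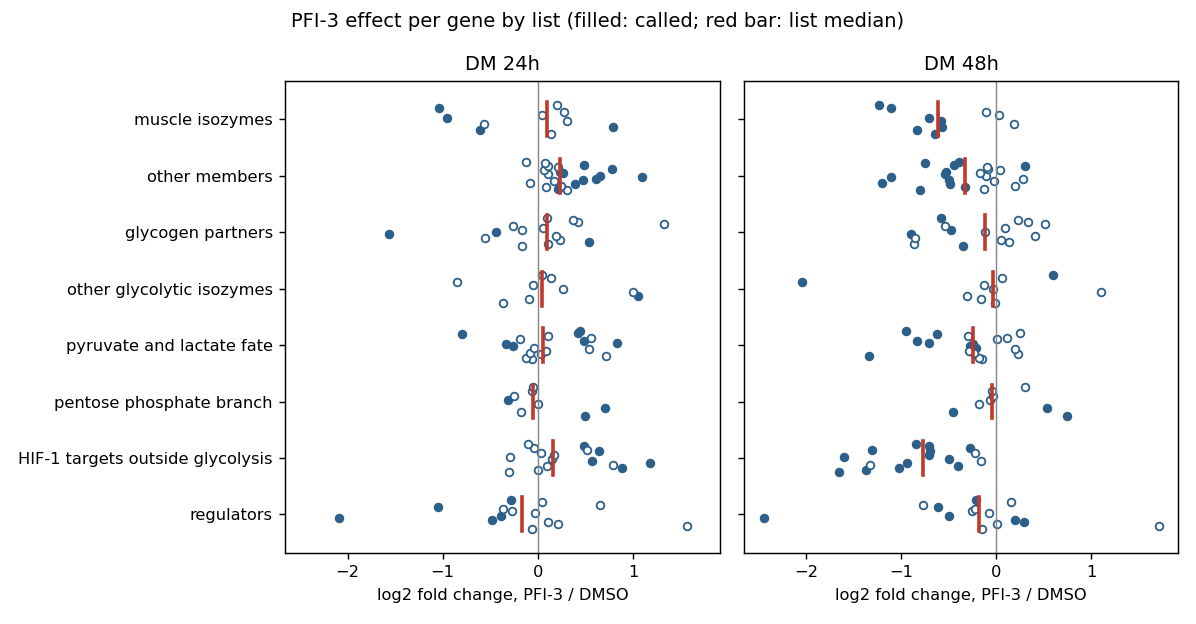
Log2 fold change of PFI-3 over DMSO per gene in DM 24h and DM 48h for the 2 lists of members and 6 lists of neighbouring genes; filled points were called, vertical position within a list carries no value, and red bars are list medians. The medians of the other members and of the HIF-1 targets are 0.23 and 0.16 in DM 24h and -0.33 and -0.78 in DM 48h. The sign also changes for muscle isozymes (0.09 and -0.61), glycogen partners (0.10 and -0.12), pyruvate and lactate fate (0.06 and -0.24) and other glycolytic isozymes (0.05 and -0.03). It does not for the pentose phosphate branch (-0.05 and -0.04) and regulators (-0.17 and -0.18).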

How the data were processed

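RNA from 12 libraries of C2C12 cells was measured, 2 in each of 6 groups read from the sample titles. The authors deposited 1 table per library, with an expected count, an FPKM value and a length per gene, per the file headers; the length was used only to describe the tables. The submitters' processing notes name HISAT, StringTie, Cufflinks, Bowtie, RSEM and DESeq2 and the build mm10, without roles. A gene missing from a table was taken as 0. The deposited expected counts, rounded, entered 1 quasi-likelihood model of all 12 libraries in edgeR 4.0.16 (R 4.3.3; TMM scaling, filterByExpr with a minimum count of 10), and 12545 genes were tested. P-values were adjusted by Benjamini-Hochberg over these genes and called under 0.05. They measure the spread between these libraries. Isozyme shares used FPKM and an exact permutation test. Values in every library are given for muscle isozymes, for their partners in 9 families and for any further member beyond 1 on the log2 scale in a called PFI-3 contrast; of other lists, up to 4 genes with the smallest adjusted p at DM 48h are named, except that 1 is not reported here. The members and lists were chosen with earlier results of these data known. Promoters came from RefSeq on GRCm38.p6, of the same assembly as mm10. Alternatives were other scalings, filters, DESeq2 1.42.0, limma 3.58.1 on log2(FPKM + 1) or log2(FPKM + 0.1), fits of only the libraries compared, a block by library letter and leaving out each library. Those of the stage differences, of the block in 4 libraries and of *Eno1b* were chosen after seeing the data. A further alternative counted *Aldoa* and *Hk2* as other members, which touches only the counts of the 2 lists. The tests of PFI-3 in DM 48h by edgeR, DESeq2 and limma were also run on simulated counts. These had the same spread in every group, unlike the data, where GM had the larger spread. The other contrasts, the stage differences and the permutation test were not simulated.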

Additional observations from a re-analysis of the deposited data

Results flagged for a closer look

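Effects of PFI-3 that differed between stages by an interaction test in edgeR (adjusted p under 0.05) are listed here as the effect at the later stage minus that at the earlier, on the log2 scale.

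Between DM 24h and DM 48h the effect was lower for 18 members. For glucose entry and the first steps the differences were -1.43 for *Slc2a4*, -0.94 for *Slc2a1*, -1.36 for *Hk2* and -0.88 for *Gpi1*. Among the phosphofructokinases and their activating enzyme they were -0.89 for *Pfkm*, -0.77 for *Pfkl*, -0.65 for *Pfkp* and -2.20 for *Pfkfb3*. *Aldoa* had -0.78, *Aldoc* -1.11 and *Tpi1* -0.83. In the later steps *Gapdh* had -0.41, *Pgk1* -0.77, *Pgam1* -0.43, *Eno1* -0.34 and *Ldha* -0.97. For glycogen, *Gys1* had -1.11 and *Pgm2* -0.87.

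Between GM and DM 24h the effect was higher for 9 members. The differences were 0.76 for *Aldoa*, 0.45 for *Gpi1*, 0.79 for *Pfkl*, 0.48 for *Gapdh* and 0.59 for *Pgk1*. They were 0.69 for *Pgam1*, 0.57 for *Eno1*, 1.01 for *Ldha* and 0.45 for *Pgm2*.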

How the results depend on the processing

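No called result reversed under any alternative. When only the compared libraries were fitted, 0 members were called higher and 0 lower with PFI-3 in GM, 2 were higher in DM 48h, 5 were lower from DM 24h to DM 48h with DMSO, and 4 had a higher effect in DM 24h than in GM. With a replicate block by letter in these fits, 2 were higher and 3 lower in GM, 17 higher in DM 24h and 2 higher in DM 48h. DESeq2 called 3 members higher in GM and 0 higher in DM 48h. Limma called 4 lower from DM 24h to DM 48h with DMSO with either pseudocount. It called 2 (pseudocount 1) and 1 (pseudocount 0.1) with a lower effect in DM 24h than in GM. The limma fits used the deposited FPKM without TMM scaling. Their median log2 fold change over all genes for PFI-3 in DM 48h was 0.071 (pseudocount 1) and 0.085 (pseudocount 0.1), against 0.001 in edgeR. The part of this shift in the calls lost with limma was not tested. Leaving out 1 library gave 1 to 8 members higher in GM, 6 to 14 higher in DM 24h and 0 to 1 higher in DM 48h. It gave 8 to 14 higher from GM to DM 24h and 1 to 4 lower from DM 24h to DM 48h with DMSO. For the effect in DM 24h against GM it gave 5 to 12 higher and 0 to 2 lower. The shares of *Eno3* (-6.80 to -6.12 points) and *Ldhb* (0.598 to 0.754) missed the threshold without library B of the GM PFI-3 group, with adjusted p = 0.0556 by exact permutation. With the replicate block, the same differences of -6.46 and 0.676 points had an adjusted p of 0.141 by exact permutation of labels within pairs; both were at that test's smallest p of 0.03125 before adjustment, so this miss says nothing about their stability. Libraries with the same letter were compared by the correlation of their deviations from the group means. Between DMSO and PFI-3 within a stage it was 0.504 in GM, 0.0295 in DM 24h and 0.0463 in DM 48h. Across stages with DMSO it was -0.0074 for GM and DM 24h and -0.0439 for DM 24h and DM 48h. The main model did not take the letters to pair the samples, although libraries of the same letter deviated together in GM. There the block raised the calls over all genes from 32 to 741 in the fit of the 4 libraries alone. The block in the fit of all 12 libraries moved no count of calls by over 1.5 times. The cause of these changes was not tested. Genes with under about 20 counts, such as *Pgam2*, *Pygm* and *Slc2a4* in GM, are limited by depth.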
